A study of Arabidopsis thaliana with 11 samples.

Results

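The 41 genes described here make, move, regulate or break down glucosinolates in Arabidopsis thaliana. They were taken by gene identifier from a table of 33602 genes and comprise 6 MYB regulators, 8 genes of side-chain elongation, 13 of core structure synthesis, 8 of side-chain modification, 4 of turnover and 2 of transport. Of these 41, 38 passed the filter used for comparisons, which asked for 1 RPKM or more in no fewer than 2 of the 6 columns, as did 19669 genes of the table. MYB76 (AT5G07700), MYB122 (AT1G74080) and AOP3 (AT4G03050) did not pass.

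RNA was sequenced from whole seedlings, 11 days old and of ecotype Columbia, grown in continuous light on medium with 2% sucrose. The study raised or lowered PTB1, PTB2 and PTB3, which are polypyrimidine tract-binding proteins, RNA-binding regulators of splicing. MI12 carried a miRNA that lowers PTB1 and PTB2, MI3 carried a miRNA that lowers PTB3, OE1, OE2 and OE3 overexpressed PTB1, PTB2 and PTB3 in turn, and wild type (WT) carried no transgene by its label. There were 11 libraries, 1 for MI3 and 2 for each of the other genotypes, and each transgenic genotype bore a single line number, so an effect of that line cannot be told apart from an effect of the PTB gene. The promoters that drive the transgenes are not given in the labels.

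The values are RPKM, read numbers scaled to kilobases of gene and mega-reads of library, with a single value per gene and genotype. There is no replicate spread in them, and no difference below has a test or a p-value. Differences are a line minus its comparison on the log2(RPKM + 1) scale, and a gene counts as higher or lower where the difference is at least 1.5-fold, or 0.58 on that scale. Steps between low values put the columns at 46.4 M reads (mega-reads) in MI3 and at 79.3 to 96.0 M reads in the other 5 columns, with a median of 1047 reads per compared gene in MI3 and 2059.9 in OE1. Intervals beside ratios are 95% exact binomial intervals on the reads so recovered. They cover counting error only, because reads are not independent molecules and the variation between plants is not in the table. The targeted genes followed the labels: PTB1 stood at 26.9% and PTB2 at 44.4% of WT in MI12, PTB3 at 18.2% in MI3, PTB1 at 6375% in OE1, PTB2 at 3798% in OE2 and PTB3 at 335% in OE3.

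Glucosinolates are sulfur-rich defence compounds of the cabbage family. Aliphatic glucosinolates are made from methionine whose side chain is first lengthened in the plastid, and indolic glucosinolates from tryptophan. An amino acid is oxidised to an aldoxime by CYP79 enzymes and further by CYP83 enzymes, joined to a sulfur donor, cleaved, glucosylated and sulfated, and the side chain may then be modified. MYB28, MYB29 and MYB76 switch on the aliphatic genes, and MYB34, MYB51 and MYB122 the indolic genes. On tissue damage, myrosinases release unstable products whose fate depends on specifier proteins.

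The stretches upstream of CYP79F1, CYP83A1 and IPMI1 are shown because these genes were among those furthest below WT in OE1, and that of CYP79F2, the neighbour of CYP79F1, because it was not past 1.5-fold there. Each stretch is the 250 bases before the annotated start in the RefSeq TAIR10.1 annotation, written 5′ to 3′ on the gene's strand. Capitals mark a G-box, CACGTG, the core motif bound by basic helix-loop-helix factors such as MYC2, or an AC element, ACCTACC or ACCAACC, a motif of MYB factors. Both strands were searched, so an AC element can appear as its reverse complement.
CYP79F1, chr1:5608432-5608681, plus strand: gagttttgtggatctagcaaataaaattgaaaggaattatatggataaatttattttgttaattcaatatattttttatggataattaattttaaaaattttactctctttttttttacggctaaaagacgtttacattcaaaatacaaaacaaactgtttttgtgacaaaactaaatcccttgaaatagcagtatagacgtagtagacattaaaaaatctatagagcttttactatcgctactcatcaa
CYP79F2, chr1:5604794-5605043, plus strand: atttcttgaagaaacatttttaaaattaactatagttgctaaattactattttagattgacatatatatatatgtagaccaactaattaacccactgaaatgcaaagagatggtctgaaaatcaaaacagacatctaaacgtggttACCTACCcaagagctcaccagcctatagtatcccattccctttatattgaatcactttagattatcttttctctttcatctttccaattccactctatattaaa
CYP83A1, chr4:7992430-7992679, minus strand: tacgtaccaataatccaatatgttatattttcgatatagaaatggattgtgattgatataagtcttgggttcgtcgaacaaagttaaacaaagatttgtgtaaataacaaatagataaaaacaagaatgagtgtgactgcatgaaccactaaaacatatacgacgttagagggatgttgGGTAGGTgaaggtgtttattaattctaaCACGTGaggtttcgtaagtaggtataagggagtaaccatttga
IPMI1, chr3:21798304-21798553, minus strand: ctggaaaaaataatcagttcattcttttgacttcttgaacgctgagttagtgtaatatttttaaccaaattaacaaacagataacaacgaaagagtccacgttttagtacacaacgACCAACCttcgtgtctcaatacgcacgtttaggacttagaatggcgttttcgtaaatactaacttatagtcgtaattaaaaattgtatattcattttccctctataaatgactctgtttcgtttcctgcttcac
The CYP79F1 window held neither motif. CYP79F2 had an AC element whose first base lay 104 bases before the start, CYP83A1 had a G-box 43 and an AC element 71 bases before it, and IPMI1 had an AC element 134 bases before it. AC elements were present in the windows of 9 of 40 protein-coding members, or 22.5%, against 3.79% of the windows of 27443 protein-coding genes. The 9 were IIL1, IPMI2, IPMI1, BASS5, CYP79F2, CYP83A1, UGT74B1, SOT16 and SOT17. G-boxes were present in 3 of the 40, or 7.50%, those of IIL1, CYP83A1 and SUR1, against 6.49% of all windows. These matches describe the letters only and show no binding.

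The glucosinolate genes were shifted most in MI3 and OE1, in opposite directions. In MI3, 17 of 38 members were higher than in WT, where 8.99% of all compared genes were, and 3 were lower, where 6.31% of all were. The median member differed by 0.54, against 0.05 for all genes. Under median-of-ratios scaling 11 members were higher, and MYB28, CYP79B2, CYP83A1, GGP1, UGT74B1 and GS-OX3 came just short, at differences of 0.54 to 0.58. In OE1, 0 members were higher, against 1.41% of all genes, and 10 were lower, against 3.83%, with a median of -0.24 for the members and -0.01 for all genes. Both comparisons use the WT column, so they share its error. The MI3 column was the highest of the 6 for 31 of the 38 members, while it was highest for 35.6% of all compared genes. The OE1 column was the lowest for 22 of the 38, while it was lowest for 22.8% of all.

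The other lines stood near WT. In MI12, 0 members were higher and 1 lower, against 1.13% and 1.57% of all genes, with a median member at -0.12. In OE2, 0 were higher and 1 lower, against 1.36% and 1.5% of all genes, with a median of -0.10. In OE3, 1 was higher and 0 lower, against 2.35% and 2.16% of all genes, with a median of 0.03 that became -0.02 under median-of-ratios scaling. Over the 5 lines, 24 members were past 1.5-fold in at least 1 line, 16 of them in 1 line, 7 in 2 and 1 in 3 or more, and 14 were past it in none. The share of all compared genes past 1.5-fold in at least 1 line was not counted, so these counts have no background beside them.

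**Figure D1:**
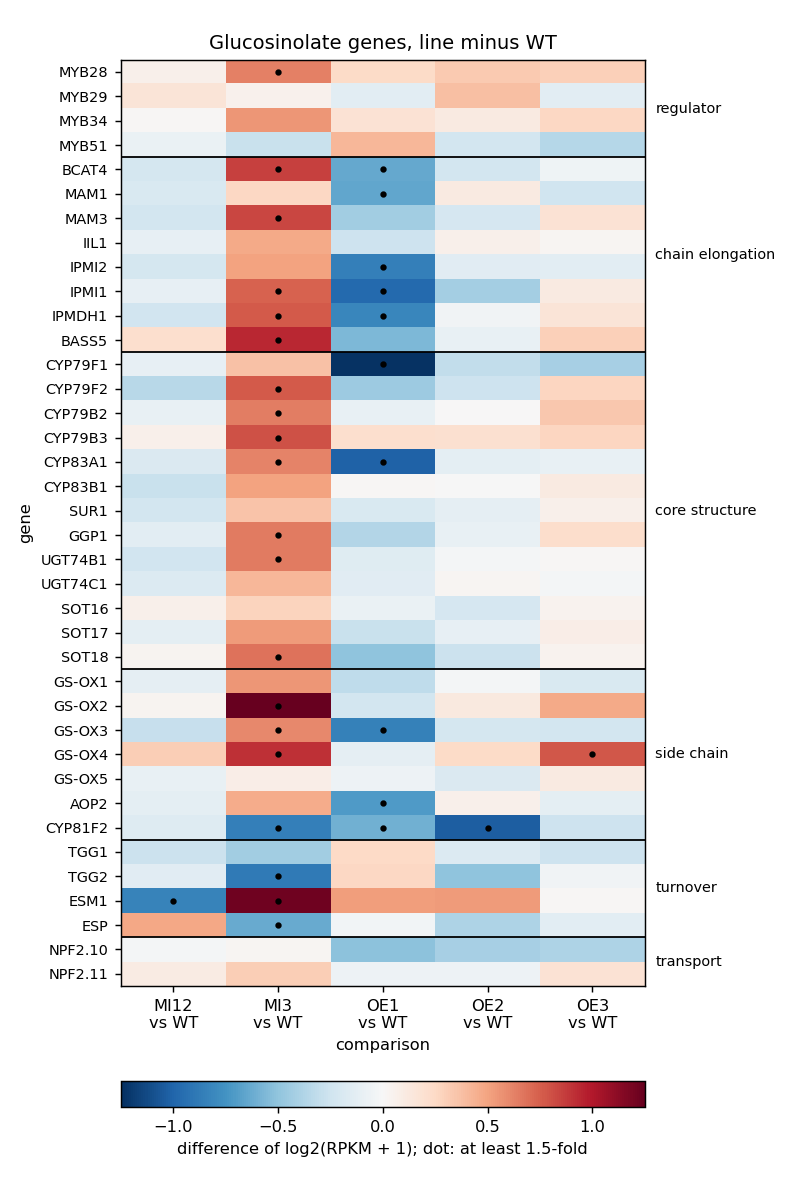
Difference of log2(RPKM + 1), line minus WT, for each compared glucosinolate gene (rows, by role) in the 5 lines (columns), with red above and blue below WT. The chain elongation and core structure genes are red throughout in MI3, and the aliphatic ones are blue throughout in OE1.

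By chemical class, the aliphatic genes lay on one side of WT in both lines. Of the 20 compared aliphatic biosynthesis genes, 20 were above WT in MI3, with a median of 0.61 against 0.05 for all genes. Past 1.5-fold were 11 of them, against 8.99% of all genes. Under median-of-ratios scaling 9 were, and under quantile normalization 10. In OE1 the same 20 were all below WT, with a median of -0.53 against -0.01 for all genes. There, 9 of them were past 1.5-fold, against 3.83% of all genes. The share of all genes on either side of WT was not counted. The signs of these 20 genes in MI3 and OE1 held under each scaling tried. Of the 5 indolic biosynthesis genes, 2 were higher and 1 lower in MI3, against 8.99% and 6.31% of all genes. Under median-of-ratios scaling 1 was higher there, and under quantile normalization 3. Their median in MI3 was 0.50. In OE1, 0 were higher and 1 lower, against 1.41% and 3.83% of all genes, with a median of -0.08. The 3 genes that serve both classes, SUR1, GGP1 and UGT74B1, had a median of 0.65 in MI3 and -0.19 in OE1. Whether the classes differ within a line was not tested.

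**Figure D2:**
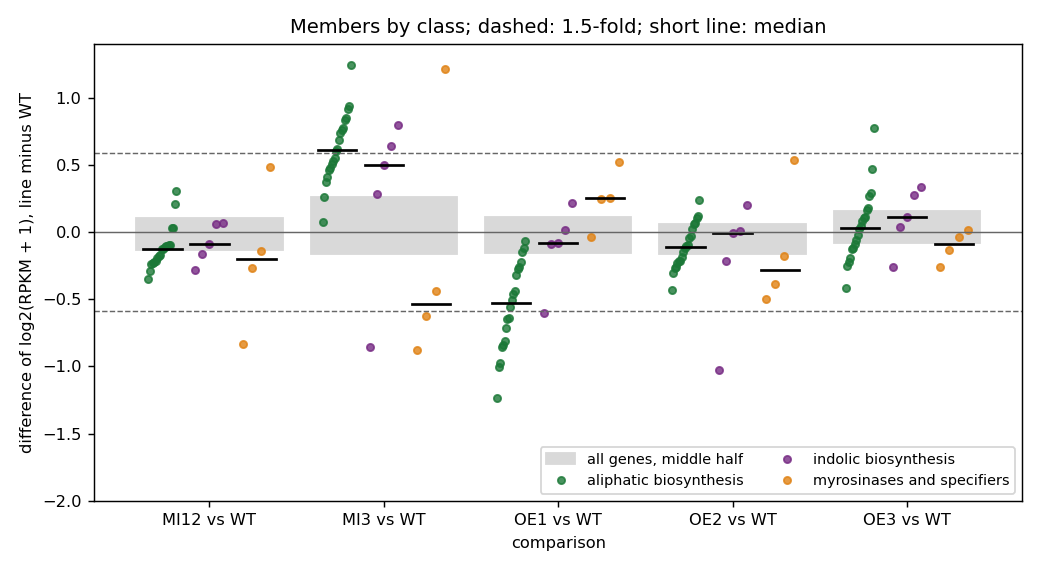
Difference of log2(RPKM + 1), line minus WT, of each compared member (points, coloured by class) in the 5 lines. Short black lines are class medians, the grey boxes hold the middle part of all compared genes from the lower to the upper quartile, and dashed lines mark 1.5-fold. Green aliphatic points lie above 0 in MI3 and below 0 in OE1.

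Seedlings are mixtures of organs, and in such bulk samples fewer cells of a type and less RNA per cell cannot be told apart. Organ markers differed between lines too, both where the glucosinolate genes differed from WT and where they stood near it. Of 9 compared root genes, 3 were lower in OE1, against 3.83% of all genes, with a median of -0.52. Their list of 12 summed to 38.5 RPKM there, against 46.8 to 62.2 RPKM in the other lines and 49.7 RPKM in WT. Those 3 were CASP1 at 4.69 RPKM in OE1 and 9.99 in WT, MYB36 at 1.25 and 2.73, and CASP2 at 3.33 and 5.74. In MI3, 2 root genes were higher, COBL9 and MYB36, against 8.99% of all genes. There, 3 of the 9 were below WT, and the root median was 0.12. In OE3 all 9 were above WT, 1 of them past 1.5-fold, against 2.35% of all genes, with a median of 0.36. Of 6 leaf genes, 3 were lower in MI3, against 6.31% of all genes. They were CA1 at 124 RPKM in MI3 and 444 in WT, RCA at 751 and 1549.7, and RBCS1A at 2666 and 4493. The list summed to 7390.1 RPKM in MI3, against 9585 to 11291 RPKM in the other lines and 10327 RPKM in WT. The antenna genes of that list did not show this in MI3, with LHCB3 at a difference of 0.28, LHCB2.1 at 0.04 and LHCB1.1 at -0.14. In MI12 these 3 antenna genes were higher and CA1 was lower, against 1.13% and 1.57% of all genes. None of the markers of either list was at 0 in any column. Their part in the differences of the glucosinolate genes was not tested.

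Among the regulators, MYB28 alone passed 1.5-fold in a line. MYB28 (AT5G61420, chromosome 5, 24689069 to 24691187), a main activator of the aliphatic genes, was at 27.7 RPKM in MI12 and 41.5 in MI3, at 31.5 in OE1, 33.7 in OE2 and 32.8 in OE3, and at 26.5 in WT. It was highest in MI3, at 1.56 times WT (1.5 to 1.63), and was also above WT in OE1, the line in which the aliphatic enzymes were low. MYB29 (AT5G07690), the second aliphatic activator, was at 4.55 RPKM in MI12 and 4.13 in MI3, at 3.52 in OE1, 5.43 in OE2 and 3.52 in OE3, and at 3.96 in WT, within 1.5-fold of WT in all lines. MYB76, the neighbour of MYB29, stayed between 0.186 and 0.502 RPKM.

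The indolic regulators differed among themselves. MYB34 (AT5G60890), which acts on indolic genes largely in roots, was at 17.9 RPKM in MI12 and 26.4 in MI3, at 20.2 in OE1, 19.2 in OE2 and 21.4 in OE3, and at 17.8 in WT. MYB51 (AT1G18570), the main indolic regulator of shoots, was at 13.9 RPKM in MI12 and 12.0 in MI3, at 20.0 in OE1, 12.4 in OE2 and 11.3 in OE3, and at 14.7 in WT. Neither was past 1.5-fold from WT, and MYB34 was above MYB51 in every column. The ratio of MYB51 to MYB34 was 0.989 (0.946 to 1.03) in OE1 and 0.454 (0.422 to 0.487) in MI3, against 0.830 (0.789 to 0.873) in WT. MYB122 ranged from 0.415 to 1.14 RPKM.

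Chain elongation genes lay on the same side of WT in each of these lines. All 8 genes were above WT in MI3, with a median of 0.75, and 5 of them were past 1.5-fold, against 8.99% of all genes. In OE1 all 8 were below WT, with a median of -0.64, and 5 of them were past 1.5-fold, against 3.83% of all genes. The medians over all genes were 0.05 in MI3 and -0.01 in OE1. Summed over the 8 genes, the ratio to WT was 1.57 in MI3 and 0.650 in OE1, and 0.889 to 1.02 in the other 3 lines.

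BCAT4 (AT3G19710, chromosome 3, 6846969 to 6849582), the aminotransferase that starts the elongation of methionine, was at 39.3 RPKM in MI12 and 83.7 in MI3, at 29.2 in OE1, 39.1 in OE2 and 44.2 in OE3, and at 45.98 in WT. Its ratio to WT was 1.82 (1.77 to 1.87) in MI3 and 0.636 (0.617 to 0.655) in OE1. BASS5 (AT4G12030), the plastid carrier that brings in the keto acids, was at 15.1 RPKM in MI12 and 25.7 in MI3, at 8.45 in OE1, 12.0 in OE2 and 16.1 in OE3, and at 12.9 in WT. It was above WT in MI12, MI3 and OE3 and below it in OE1 and OE2, and its ratio of 1.99 (1.89 to 2.09) in MI3 was the highest of the 8 genes.

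The synthases MAM1 and MAM3, which condense the keto acid with acetyl-CoA, moved unequally. MAM1 (AT5G23010) was at 34.1 RPKM in MI12 and 47.3 in MI3, at 24.6 in OE1, 42.3 in OE2 and 32.7 in OE3, and at 39.2 in WT, and was past 1.5-fold in OE1 only among the lines, at 0.628 of WT (0.612 to 0.645). MAM3 (AT5G23020), which also makes the longest chains, was at 24.6 RPKM in MI12 and 52.3 in MI3, at 21.1 in OE1, 24.9 in OE2 and 32.9 in OE3, and at 28.9 in WT, and was past it in MI3 only, at 1.81 of WT (1.76 to 1.86). Their ratio, MAM1 to MAM3, was 0.904 (0.878 to 0.931) in MI3 and 0.996 (0.970 to 1.02) in OE3, against 1.35 (1.32 to 1.39) in WT. In the other lines MAM1 stayed the more abundant by this measure, as in WT.

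The isomerase that follows has a large subunit and interchangeable small subunits. IPMI1 (AT3G58990), a small subunit, was at 24.4 RPKM in MI12 and 44.6 in MI3, at 12.9 in OE1, 19.3 in OE2 and 28.4 in OE3, and at 26.3 in WT. Its ratio to WT was 1.69 (1.61 to 1.79) in MI3 and 0.491 (0.461 to 0.522) in OE1. IPMI2 (AT2G43100), another small subunit, was at 42.8 RPKM in MI12 and 71.2 in MI3, at 27.1 in OE1, 45.0 in OE2 and 45.6 in OE3, and at 49.9 in WT, and was past 1.5-fold in OE1, at 0.543 of WT (0.520 to 0.568). The large subunit IIL1 (AT4G13430), which leucine synthesis uses too, ranged from 66.2 RPKM in OE1 to 111 in MI3 and was past 1.5-fold in no line.

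IPMDH1 (AT5G14200), the dehydrogenase that closes each elongation cycle, was at 57.3 RPKM in MI12 and 116 in MI3, at 38.3 in OE1, 65.7 in OE2 and 76.3 in OE3, and at 67.9 in WT. It was at 1.71 of WT (1.67 to 1.75) in MI3 and 0.564 of WT (0.548 to 0.579) in OE1. With IPMI1, BCAT4 and CYP83A1 it was among the 5 members past 1.5-fold upward in MI3 and downward in OE1, the fifth being GS-OX3.

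**Figure D3:**
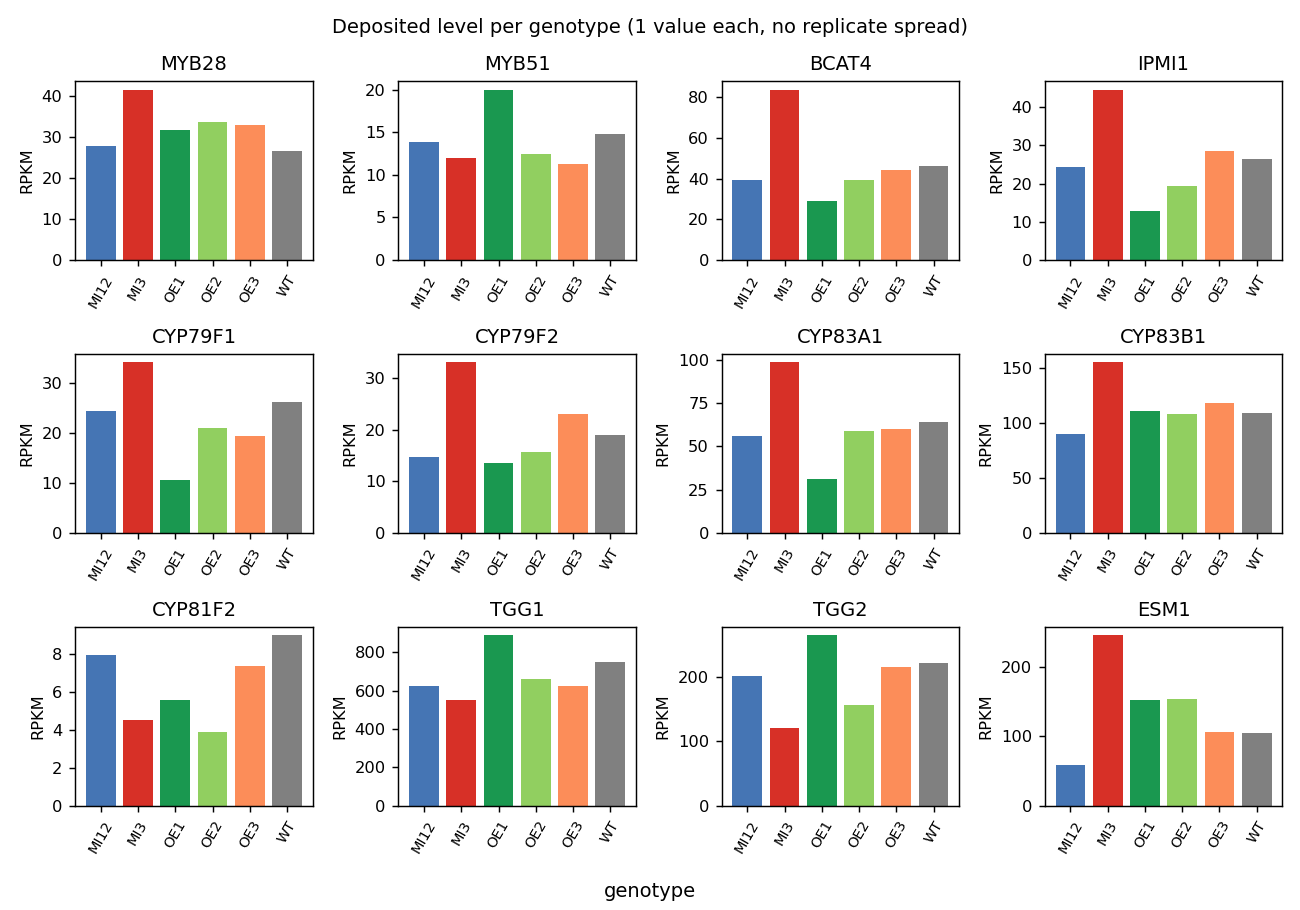
RPKM of selected members in the 6 columns, with lines from MI12 to OE3 and WT at the right, each axis starting at 0. Bars are the authors' single values per genotype, with no error bar. MI3 is tallest for BCAT4, IPMI1, CYP83A1 and ESM1, OE1 is shortest for BCAT4, IPMI1, CYP79F1 and CYP83A1, and WT is tallest for CYP81F2.

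For the core structure, all 13 genes were above WT in MI3, with a median of 0.62. Past 1.5-fold were 7 of them, against 8.99% of all genes. Under median-of-ratios scaling 4 of these 7, CYP79B2, CYP83A1, GGP1 and UGT74B1, fell short of 1.5-fold. In OE1, 11 were below WT and 2 of these were lower by 1.5-fold, against 3.83% of all genes. The median of the 13 there was -0.19. CYP79F1 (AT1G16410, chromosome 1, 5608682 to 5612064), which oxidises short- and long-chained methionine derivatives, was at 24.3 RPKM in MI12 and 34.1 in MI3, at 10.5 in OE1, 21.0 in OE2 and 19.3 in OE3, and at 26.1 in WT. Its ratio of 0.402 (0.386 to 0.419) in OE1 was the lowest of any compared member in that line. CYP79F2 (AT1G16400, chromosome 1, 5605044 to 5607498), which takes the long-chained derivatives, was at 14.7 RPKM in MI12 and 33.0 in MI3, at 13.5 in OE1, 15.6 in OE2 and 23.1 in OE3, and at 18.9 in WT.

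These neighbours, 1183 bases apart, differed from WT by unequal amounts. They lay on the same side of WT in MI12, MI3, OE1 and OE2 and on opposite sides in OE3. CYP79F1 to CYP79F2 was 1.66 (1.60 to 1.73) in MI12, 1.03 (0.989 to 1.08) in MI3, 0.777 (0.741 to 0.816) in OE1, 1.34 (1.28 to 1.40) in OE2 and 0.838 (0.807 to 0.870) in OE3, against 1.38 (1.33 to 1.43) in WT. Scaled to exon length rather than gene span, CYP79F1 was below CYP79F2 in MI3, at 35.2 and 40.2 RPKM, and likewise in OE1 and OE3, and above it in MI12, OE2 and WT. Their coding sequences were 90.7% identical, and 2.00% of the 50-base windows of CYP79F1 occurred in CYP79F2. The sources used here do not give how reads that map to both were counted, so these values are uncertain to that extent.

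CYP83A1 (AT4G13770, chromosome 4, 7990429 to 7992429), the aldoxime oxidase of the aliphatic branch, was at 56.3 RPKM in MI12 and 98.6 in MI3, at 31.3 in OE1, 58.6 in OE2 and 59.9 in OE3, and at 63.9 in WT. It was at 1.54 of WT (1.5 to 1.59) in MI3 and 0.490 of WT (0.475 to 0.505) in OE1. CYP83B1 (AT4G31500), its indolic counterpart, was at 89.7 RPKM in MI12 and 155 in MI3, at 110.4 in OE1, 108 in OE2 and 118 in OE3, and at 109 in WT. CYP83B1 in OE1 thus stood within counting distance of WT while CYP83A1 was low, and CYP83A1 to CYP83B1 was 0.283 (0.275 to 0.292) in OE1, against 0.586 (0.573 to 0.599) in WT. In MI3 both were above WT and the ratio was 0.637 (0.621 to 0.654).

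CYP79B2 and CYP79B3 turn tryptophan into indole-3-acetaldoxime. CYP79B2 (AT4G39950) was at 29.6 RPKM in MI12 and 49.7 in MI3, at 29.6 in OE1, 31.7 in OE2 and 40.2 in OE3, and at 31.6 in WT. CYP79B3 (AT2G22330) was at 24.6 RPKM in MI12 and 41.4 in MI3, at 27.3 in OE1, 27.1 in OE2 and 28.5 in OE3, and at 23.4 in WT. Both were past 1.5-fold in MI3, at 1.57 (1.52 to 1.63) and 1.76 (1.70 to 1.83) of WT, and neither was in OE1. CYP79B2 to CYP79B3 ranged from 1.08 (1.05 to 1.12) in OE1 to 1.41 (1.37 to 1.45) in OE3, against 1.35 (1.30 to 1.39) in WT.

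Later steps of the core pathway followed the same pattern in MI3. GGP1 (AT4G30530), a peptidase that trims the glutathione conjugate, was at 74.5 RPKM in MI12 and 128 in MI3, at 63.1 in OE1, 76.6 in OE2 and 95.3 in OE3, and at 81.5 in WT. UGT74B1 (AT1G24100), a glucosyltransferase, was at 38.5 RPKM in MI12 and 72.2 in MI3, at 40.9 in OE1, 44.8 in OE2 and 46.2 in OE3, and at 45.6 in WT. Both were past 1.5-fold in MI3 and in no other line. The C-S lyase SUR1 (AT2G20610) ranged from 32.4 RPKM in MI12 to 49.3 in MI3, and the glucosyltransferase UGT74C1 (AT2G31790) from 22.0 RPKM in MI12 to 33.5 in MI3.

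Among the sulfotransferases, SOT17 and SOT18 prefer aliphatic and SOT16 indolic substrates. SOT18 (AT1G74090) was at 40.5 RPKM in MI12 and 64.0 in MI3, at 27.6 in OE1, 32.6 in OE2 and 40.7 in OE3, and at 39.5 in WT, at 1.62 of WT (1.55 to 1.69) in MI3. SOT17 (AT1G18590) was at 26.1 RPKM in MI12 and 41.8 in MI3, at 23.4 in OE1, 26.6 in OE2 and 30.3 in OE3, and at 28.6 in WT, and was past 1.5-fold in no line. SOT17 to SOT18 was 0.849 (0.811 to 0.891) in OE1 and 0.645 (0.618 to 0.673) in MI12, against 0.724 (0.694 to 0.754) in WT. SOT16 (AT1G74100) ranged from 56.7 RPKM in OE2 to 80.4 in MI3.

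The branches can be compared by a ratio within each column, where the scaling between columns has no part. Summed over their genes, aliphatic to indolic biosynthesis stood at 2.40 in MI12 and 2.76 in MI3, at 1.63 in OE1, 2.40 in OE2 and 2.28 in OE3, against 2.46 in WT. The sums hold 21 aliphatic and 5 indolic genes and are not scaled to exon length. Only the differences of this ratio between columns are therefore read, not its size. The aliphatic sum was 384 RPKM in OE1 and 587 RPKM in WT, a ratio of 0.653, and the indolic sum was 235 RPKM in OE1 and 239 RPKM in WT, a ratio of 0.984. In MI3 both sums were above WT, at ratios of 1.55 and 1.38.

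**Figure D4:**
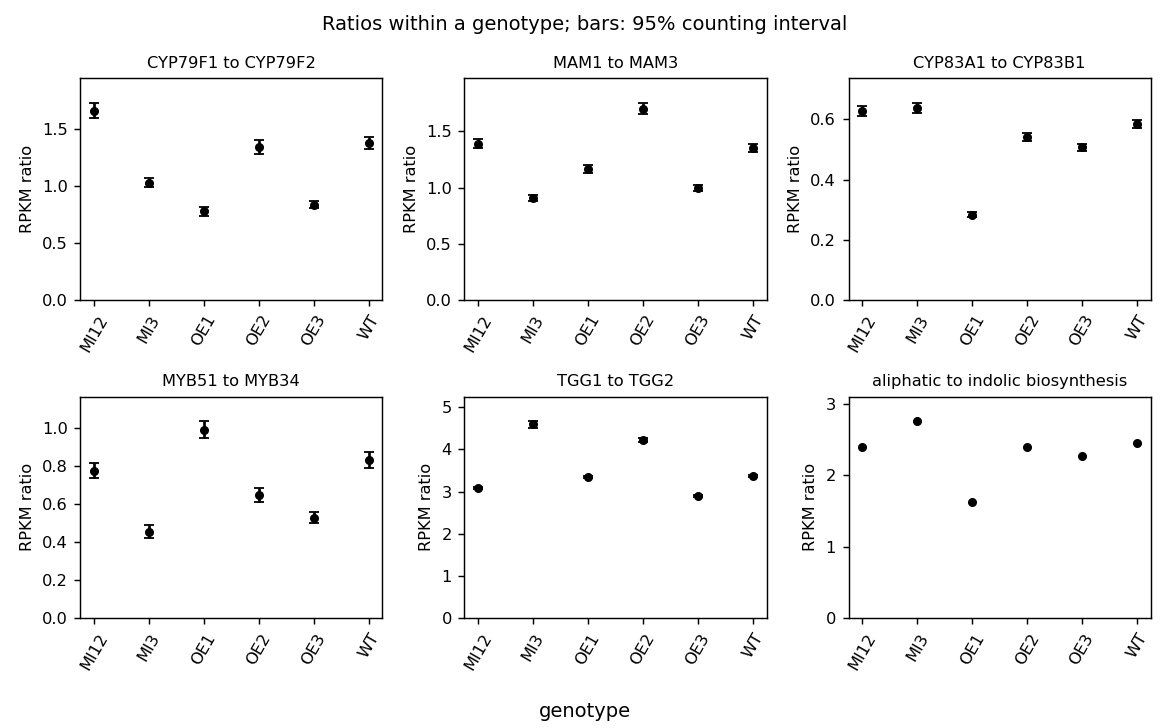
Ratio of RPKM between paired members within each of the 6 columns, lines first and WT at the right, with 95% counting intervals where reads of both genes were recovered. CYP83A1 to CYP83B1 and aliphatic to indolic biosynthesis are lowest in OE1.

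Of 7 compared side-chain modification genes, 3 were higher and 1 lower in MI3, against 8.99% and 6.31% of all genes. In OE1, 0 were higher and 3 lower, against 1.41% and 3.83% of all genes. The GS-OX flavin monooxygenases oxidise the sulfur of the side chain. GS-OX2 (AT1G62540) was at 1.76 RPKM in MI12 and 5.38 in MI3, at 1.31 in OE1, 1.93 in OE2 and 2.75 in OE3, and at 1.70 in WT, and its ratio of 3.17 (2.87 to 3.50) in MI3 was the largest of any member there. GS-OX3 (AT1G62560) was at 5.08 RPKM in MI12 and 10.3 in MI3, at 3.14 in OE1, 5.40 in OE2 and 5.36 in OE3, and at 6.43 in WT, at 0.489 of WT (0.452 to 0.529) in OE1. GS-OX4 (AT1G62570) was at 10.7 RPKM in MI12 and 16.9 in MI3, at 7.75 in OE1, 10.2 in OE2 and 15.2 in OE3, and at 8.48 in WT. It was the 1 member past 1.5-fold in OE3, at 1.79 of WT (1.71 to 1.88), and it was also high in MI3, at 1.99 (1.88 to 2.1). GS-OX1 (AT1G65860) ranged from 2.62 RPKM in OE1 to 5.65 in MI3, and GS-OX5 (AT1G12140) from 9.50 in OE2 to 11.9 in OE3.

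AOP2 and AOP3 convert the oxidised side chain, and accession Columbia is known to lack a functional AOP2. AOP2 (AT4G03060), annotated as a transcribed pseudogene, was at 3.27 RPKM in MI12 and 5.43 in MI3, at 1.84 in OE1, 3.88 in OE2 and 3.29 in OE3, and at 3.65 in WT, at 0.505 of WT (0.447 to 0.567) in OE1. AOP3 stayed at or below 0.0280 RPKM and was listed at 0 in MI12 and WT.

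CYP81F2 (AT5G57220), which hydroxylates the indole ring of indolic glucosinolates, was the one member past 1.5-fold in 3 lines. It was also the 1 compared biosynthesis member below WT in MI3. The other compared members below WT there were MYB51, TGG1, TGG2 and ESP. CYP81F2 was at 7.94 RPKM in MI12 and 4.53 in MI3, at 5.58 in OE1, 3.90 in OE2 and 7.36 in OE3, and at 9.01 in WT. Its ratio to WT was 0.503 (0.452 to 0.560) in MI3, 0.619 (0.573 to 0.668) in OE1 and 0.433 (0.395 to 0.475) in OE2. The OE1 difference was -0.57, short of 1.5-fold, under quantile normalization. WT was the highest of the 6 columns, so all 5 lines lay below it, and the 1 lower member of OE2 was this gene.

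The 4 turnover genes were mixed, with 1 higher and 2 lower in MI3, against 8.99% and 6.31% of all genes. In OE1, 0 were higher and 0 lower, against 1.41% and 3.83% of all genes. TGG1 and TGG2 encode the myrosinases of leaves, found in guard cells and phloem-associated myrosin cells. TGG1 (AT5G26000) was at 623 RPKM in MI12 and 552 in MI3, at 889.7 in OE1, 663 in OE2 and 625 in OE3, and at 749.5 in WT, within 1.5-fold of WT in all lines. TGG2 (AT5G25980) was at 202 RPKM in MI12 and 120.3 in MI3, at 266 in OE1, 157 in OE2 and 216 in OE3, and at 222 in WT, at 0.541 of WT (0.532 to 0.550) in MI3. Their summed ratio to WT was 0.692 in MI3, where biosynthesis was high, and 1.19 in OE1, where aliphatic biosynthesis was low. The sum was below WT in MI12, OE2 and OE3 too, at ratios of 0.848, 0.844 and 0.865, although biosynthesis stood nearer to WT there. Whether the myrosinase and biosynthesis genes vary together was not tested.

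TGG1 to TGG2 was 4.59 (4.52 to 4.67) in MI3 and 4.22 (4.17 to 4.27) in OE2, against 3.37 (3.34 to 3.40) in WT. In the other lines it was between 2.89 and 3.35. Of 7 compared guard cell and stomatal lineage genes, 0 were past 1.5-fold in any line. With 7 genes this says little, as only 1.13% to 8.99% of all genes were past it per line and direction. The list of 8 summed to 44.8 RPKM in MI12, 58.0 in MI3, 55.8 in OE1 and 51.9 in WT, and in MI12 6 of the 7 were below WT. FAMA, the regulator of guard cells and myrosin cells, is the 1 gene of the list tied to myrosin cells. FAMA was at 7.62 RPKM in MI12 and 10.6 in WT. RPKM here appears to be per kilobase of gene span with introns, from the steps between low values, which no source used here states. If so, levels compare between genes only after scaling to exon length, and on that scale TGG1 stood at 1161 RPKM in WT, TGG2 at 347, CYP83B1 at 114 and CYP79F2 at 23.0.

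ESM1 and ESP act on the products of myrosinase. ESM1 (AT3G14210, chromosome 3, 4729399 to 4731847), a modifier that favours isothiocyanates, was at 58.7 RPKM in MI12 and 246 in MI3, at 152 in OE1, 153 in OE2 and 107 in OE3, and at 106 in WT. The miRNA lines stood at opposite ends of its range, MI12 at 0.556 of WT (0.544 to 0.568) and MI3 at 2.33 (2.29 to 2.37). It was the 1 member lower in MI12. ESP (AT1G54040), which favours nitriles and is known to be weakly active in Columbia, was at 2.73 RPKM in MI12 and 0.726 in MI3, at 1.60 in OE1, 1.03 in OE2 and 1.43 in OE3, and at 1.66 in WT. Its order ran the other way for both miRNA lines, with a ratio to WT of 0.437 (0.352 to 0.538) in MI3 on 109 reads there and 501 in WT.

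The transporters NPF2.10 and NPF2.11 load glucosinolates into the phloem. NPF2.10 (AT3G47960) was at 21.7 RPKM in MI12 and 22.4 in MI3, at 15.2 in OE1, 16.3 in OE2 and 16.6 in OE3, and at 22.1 in WT. NPF2.11 (AT5G62680) was at 40.9 RPKM in MI12 and 47.1 in MI3, at 36.2 in OE1, 36.3 in OE2 and 43.1 in OE3, and at 37.9 in WT. Neither was past 1.5-fold in any line. NPF2.10 to NPF2.11 was 0.386 (0.372 to 0.399) in OE3 and 0.419 (0.404 to 0.434) in OE1, against 0.582 (0.564 to 0.601) in WT, and the 3 overexpressors had the lowest NPF2.10 values.

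Comparisons without WT reused the columns described above, among them the single-library MI3 column and that of OE1. Results alike to those against WT are therefore no second source. MI3 against OE3 sets lowered against raised PTB3, and 14 members were higher and 2 lower in MI3, against 4.71% and 3.03% of all genes. The median member differed by 0.45, and 12 of 20 aliphatic genes were higher. Of the 6 leaf genes, 3 were lower in MI3 in the same comparison, with a median of -0.43. The members lower in MI3 were TGG2, at 0.556 of OE3, and CYP81F2, at 0.616. OE3 itself had BCAT4 at 44.2 RPKM and CYP83A1 at 59.9, against 45.98 and 63.9 RPKM in WT.

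MI12 set against the averaged OE1 and OE2 values contrasts lowered PTB1 and PTB2 with PTB1 raised in OE1 and PTB2 raised in OE2. The gene not overexpressed was below WT in each, PTB2 at 63.6% of WT in OE1 and PTB1 at 68.7% in OE2. There, 4 members were higher, against 2.62% of all genes, and 1 was lower, against 2.16%. CYP79F1 differed by 0.67, IPMI1 by 0.60 (0.56 and 0.58, short of 1.5-fold, under median-of-ratios scaling and quantile normalization), CYP81F2 by 0.65 and ESP by 0.70, and ESM1 by -1.36. The averaged columns were unlike for some of these. CYP79F1 was at 24.3 RPKM in MI12, 10.5 in OE1 and 21.0 in OE2, and IPMI1 at 24.4, 12.9 and 19.3, so OE1 lay further from MI12. For CYP81F2, at 7.94, 5.58 and 3.90 RPKM, and ESP, at 2.73, 1.60 and 1.03, OE2 lay further from it. In the same comparison 4 of the 9 root genes were higher in MI12, and of the 6 leaf genes 3 were higher and 1 lower.

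OE1 against OE2 sets the close homologues PTB1 and PTB2 against each other. In OE1, 2 members were higher, MYB51 and TGG2, against 1.51% of all genes, MYB51 just short of 1.5-fold under quantile normalization, and 7 were lower, against 2.54%. All 7 were aliphatic: MAM1, IPMI2, IPMDH1, CYP79F1, CYP83A1, GS-OX3 and AOP2. CYP79F1 was at 0.501 of OE2 (0.480 to 0.523) and AOP2 at 0.476 (0.421 to 0.536). Of the 20 compared aliphatic genes, 19 were below OE2 in OE1. PTB1 was at 603 RPKM in OE1 and PTB2 at 343 RPKM in OE2, and whether these doses are matched was not tested. PTB2 was at 5.74 RPKM in OE1 and 9.025 in WT, and PTB1 at 6.49 RPKM in OE2 and 9.456 in WT.

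Other genes of the pathway that are not among the 41 were counted in the same way. Of 16 compared further pathway genes, 6 were higher and 0 lower in MI3, against 8.99% and 6.31% of all genes. In OE1, 0 were higher and 4 lower, against 1.41% and 3.83% of all genes. IGMT5, a methyltransferase of indolic glucosinolates, was at 60.9 RPKM in MI3 and 22.7 in WT. CYP81F4, which acts on the indole ring at another position than CYP81F2, was at 30.6 RPKM in MI3 and 12.5 in WT, so these CYP81F genes moved in opposite directions in that line. The 4 lower in OE1 were IGMT1, IGMT2, GSTU20 and GSTF11, and IGMT1 and IGMT2 were also the 2 lower in OE2, against 1.5% of all genes. IGMT1 was at 14.6 RPKM in OE1, 11.5 in OE2 and 17.3 in MI3, against 23.8 in WT. In MI3, IGMT1 and IGMT2 both lay below WT, within 1.5-fold. These IGMT genes are close copies and their reads may not have been kept apart.

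Of 12 compared further breakdown genes, 8 were higher and 0 lower in MI3, against 8.99% and 6.31% of all genes. The nitrile specifier gene NSP1 was at 311 RPKM in MI3 and 123 in WT, and at 79.3 RPKM in OE1, where it was 1 of the 2 lower genes, against 3.83% of all genes, the other being NSP3. In OE3 the root myrosinase genes TGG4, at 10.2 RPKM against 5.12 in WT, and TGG5, at 13.7 against 6.58, were the 2 higher genes, where 2.35% of all genes were. Both were also among the 8 higher genes in MI3, TGG4 at 11.8 RPKM and TGG5 at 14.7 RPKM. In MI12 the nitrilase gene NIT1, at 238 RPKM against 389 in WT, was the 1 lower gene, where 1.57% of all genes were.

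Of 8 further regulators, 4 were higher and 0 lower in MI3, against 8.99% and 6.31% of all genes. SDI1, a repressor of glucosinolate synthesis that is induced by sulfur deficiency, was at 4.22 RPKM in MI12 and 22.4 in MI3, at 5.79 in OE1, 7.05 in OE2 and 12.2 in OE3, and at 3.48 in WT. It was above WT in all 5 lines and furthest above it in MI3. MYC2 and MYC4, partners of the MYB factors, were at 29.4 and 21.8 RPKM in MI3, against 18.0 and 13.4 RPKM in WT. The sulfur-regulated SDI2 was at 25.4 RPKM in MI3 and 11.5 in WT.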

How the data were processed

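RNA was measured in 11 libraries of 6 genotypes, grouped by the labels. The authors deposited RPKM, 1 column per genotype in 1 table. The sources used here do not give how libraries were combined, nor the aligner, the counter or the strand setting, so values of near-identical or overlapping genes are uncertain. The build was TAIR10 per the submitters' processing notes, and symbols and coordinates come from RefSeq TAIR10.1 (32835 identifiers matched). A WT cell without a number was treated as 0.

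Low values fell within 0.1 of a whole read for 64.2% to 71.8% of multi-exon genes when RPKM was taken per gene span, and 26.5% to 30.5% when taken per exon length, where 20% would by chance. Depth, reads and counting intervals were therefore recovered on the span, which is an inference from these values. Differences used a pseudocount of 1 after a filter of 1 RPKM in 2 columns; calls need 1.5-fold. With 1 value per genotype no test was run. The depth and call steps were tested on simulated data.

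The members and gene lists were chosen with earlier results of these data known. RPKM in all 6 columns is given for members past 1.5-fold in a line and for paired members, and other genes only from fixed lists, at most 4 per list and comparison. Alternatives were other pseudocounts, filters, scalings and controls. The software was Biopython 1.88, matplotlib 3.10.9, scipy 1.17.1, pandas 2.3.3 and numpy 2.4.6 under Python 3.11.15.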

Additional observations from a re-analysis of the deposited data

How the results depend on the processing

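The alternatives were pseudocounts of 0.1 and 0.5, no filter, a filter raised to 5 RPKM, median-of-ratios scaling, quantile normalization, leaving organelle and ribosomal RNA genes out of the total, and a control made from the median over the other 4 lines. Of the medians, counts and comparisons over all members, 170 values moved little and 13 moved. The sign of an all-member median changed only in OE3, to -0.02 under median-of-ratios scaling. Class medians near 0 also changed sign under that scaling. The indolic median went from -0.01 to 0.05 in OE2 and from 0.03 to -0.03 in OE1 against OE2. The aliphatic median went from 0.03 to -0.02 in OE3. With a pseudocount of 0.1, MI12 had 1 higher member, OE2 had 2 lower and OE3 had 2 higher. Under median-of-ratios scaling MI3 had 11 higher members and a median of 0.47, and OE2 had 1 higher member. Against the other 4 lines, MI12 had 1 higher member, MI3 had 1 lower and a median of 0.62, OE1 had 1 higher, and OE3 had 0 higher and a median of 0.11. Under quantile normalization OE1 against OE2 had 1 higher member. Of 63 calls over the 8 comparisons, 55 were kept under median-of-ratios scaling, 59 under quantile normalization and 63 under each of the other scaling and pseudocount settings. The calls lost were those named in the report and that of IPMDH1 in MI3 against OE3, at 0.58 under median-of-ratios scaling. The cause of these shifts was not tested. No paired analysis was possible because the table holds 1 column per genotype, and for the same reason no library could be left out. The limit on every value is that the spread between libraries is unknown, and MI3 rests on 1 library of the lowest depth.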
